A study of Rattus norvegicus with 24 samples.

Results

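The genotype by sugar interaction in hypoxia compares rat lung microvascular endothelial cells with and without a knockout of Pfkfb3, which encodes a glycolytic regulator. It asks, for each gene, whether their transcriptional answers to fructose in place of glucose under low oxygen differed. It was taken over the 12 hypoxia samples of the 24 in the study, across all expressed genes. The value for a gene is the log2 change from glucose to fructose in Pfkfb3 knockout (KO) cells, less the same change in wild-type (WT) cells. A positive value means that the KO change lay above the WT change, and a negative value that it lay below.

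The cells are a rat line of pulmonary microvascular endothelial cells, the cells that line the smallest blood vessels of the lung. RNA levels of all genes were measured by sequencing in 4 groups of 3 hypoxia samples: WT with glucose, WT with fructose, KO with glucose and KO with fructose. Every group was kept in hypoxia for 24 h, with its sugar at 25 mM, and a matching set of 12 samples was kept in normoxia. Neither the altered part of Pfkfb3, nor the number of KO clones, nor the oxygen level is stated. The effect of the knockout and that of any other difference between the WT and KO cells therefore cannot be told apart. Nothing says that samples of a group came from separate cultures, so p-values measure only how these samples spread, which may be technical. No group had both sugars or neither, so the effects of fructose and of missing glucose cannot be told apart.

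PFKFB3 is a bifunctional enzyme that makes a regulatory bisphosphate of fructose, a strong activator of phosphofructokinase, and so raises the pace of glycolysis. In endothelial cells it is the main isoform and is needed for vessel sprouting. Glucose enters these cells mainly through the transporter GLUT1 and is trapped by hexokinases. Fructose is handled poorly by hexokinases and is taken up by GLUT5 and phosphorylated by ketohexokinase in the tissues that use it, joining glycolysis below phosphofructokinase. Cells that run short of glucose classically raise the chaperones of the endoplasmic reticulum (ER), known for that reason as glucose-regulated proteins.

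Totals of the 12 libraries lay between 16655778 and 23028807 counts, and 14447 genes were tested. Levels are given as counts scaled to a library total of 1000000 (CPM), changes as log2 values ± the standard error of the fit, and a gene is called where its adjusted p from edgeR's quasi-likelihood test was under 0.05. Scaling factors of the libraries followed the groups, at 1.03 to 1.06 in WT with glucose, 0.944 to 0.957 in WT with fructose and 0.994 to 1.02 in KO. On a principal component plot the first axis, with 78.9% of the variance, separated the genotypes, and the second, with 8.09%, separated the sugars in WT (scores of −23.2 to −22.9 with glucose, 20.8 to 25.8 with fructose) farther than in KO (−5.6 to −4.0 and 2.5 to 6.1). Of 19 endothelial markers matched to the table, 9 were under 1 CPM in every library, among them Cdh5 (VE-cadherin) and Kdr (the main VEGF receptor), and Pecam1 was not matched. Of those 9, 6 had no count in any of the 12 libraries: Emcn, Cldn5, Robo4, Sox17, Sox18 and Ptprb. The cells are called endothelial here as they were named with the samples, and their identity was not tested. Here, as in any bulk sample, fewer cells of a type and less RNA per cell cannot be told apart.

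Pfkfb3 itself (chr17:70684134-70713726, plus strand, Rnor_6.0), the gene targeted in the KO cells, was measured at 63.7, 66.9 and 79.6 CPM in WT with glucose and 143, 159 and 149 with fructose. KO libraries held 45.5, 42.4 and 48.1 CPM with glucose and 53.4, 62.8 and 56.2 with fructose. In CPM, which leave out the scaling factors, the WT libraries with fructose were all above the other 9. All KO libraries were below the WT libraries with glucose, though narrowly, with 62.8 CPM in KO fructose replicate 2 and 63.7 in WT glucose replicate 1. The scaling factors of these libraries were 1.002 and 1.03, so that order may not hold on the scale of the tests. Transcripts were therefore still counted in KO cells, and counts over the whole gene do not show whether the altered part was among them. Fructose raised Pfkfb3 2.36-fold in WT, by 1.24 ± 0.087 (adjusted p = 1.62e-08), and 1.27-fold in KO, by 0.34 ± 0.088 (adjusted p = 0.0319), which gave an interaction of −0.90 ± 0.12 (adjusted p = 7.66e-05). The KO call was lost in 5 of the 12 fits that left out a library (adjusted p up to 0.147).

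KO cells had a much smaller transcriptional answer to fructose in hypoxia than WT cells. In WT cells 6627 genes changed between the sugars, 45.9% of those tested, with 3206 higher (22.2%) and 3421 lower (23.7%) with fructose. In KO cells 797 changed, 5.52%, with 390 higher (2.7%) and 407 lower (2.82%). That count was 454, 427 or 516 without KO glucose replicate 1, 2 or 3, and 442 without KO fructose replicate 1. The difference itself was called for 3637 genes, 25.2%, of which 1802 (12.5%) were positive and 1835 (12.7%) negative. Of the called genes, 972 differed at least 2-fold. Counts of called list members given below are to be read beside these shares. With libraries scaled by their totals alone, in place of TMM factors, the interaction was called for 4067 genes, but the split moved to 2832 positive and 1235 negative, and the median over all genes moved from 0.03 to 0.17. The split in WT moved likewise, to 2313 higher and 4713 lower.

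The fitted KO change was smaller in size than the WT change in 10787 of the 14447 genes tested (74.7%), and in 3419 of the 3637 called genes (94%). By pattern, 1579 called genes rose in WT with no called change in KO and 1511 fell in WT with no called change in KO, together most of the list. Another 151 rose and 132 fell in both genotypes by different amounts. Responses of opposite sign, each called, were seen in 44 genes, and a called response in KO alone in 85: 49 higher and 36 lower. Neither single response was called in 135. Without single libraries the opposite responses numbered 20 (without KO glucose replicate 2) to 52, and those in KO alone 50 (without KO glucose replicate 1) to 96. Of the 637 genes that changed in both genotypes, which were 9.61% of the WT list and 79.9% of the KO list, 593 changed in the same direction. Across all genes the WT and KO changes, which share no library, had a Pearson correlation of 0.256 and standard deviations of 0.832 and 0.482. On the linear CPM scale 3618 of the 3637 called interactions (99.5%) had the same sign.

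**Figure D1:**
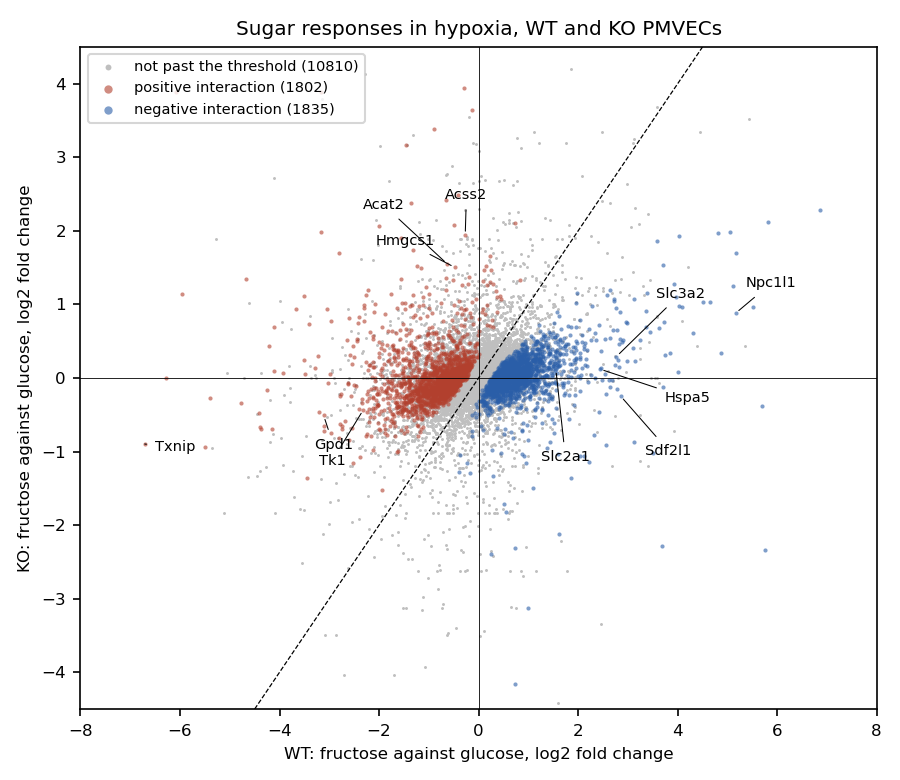
Log2 change from glucose to fructose in WT (x axis) against KO (y axis) in hypoxia, with a point for each of the 14447 genes tested; coloured points are the 1802 positive and 1835 negative called interactions, and the diagonal marks equal responses. The cloud is wide along the x axis and narrow along the y axis, and 6 genes lie outside the axes drawn.

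Few genes of hexose transport and sensing were called, GLUT1 and Txnip among them. Slc2a1 (chr5:138154673-138182897, plus strand) encodes GLUT1, the main glucose transporter of endothelium, and stood at 287, 291 and 273 CPM in WT with glucose and 743, 746 and 783 with fructose. KO libraries held 480.2, 461 and 441 CPM with glucose and 533, 510.0 and 463 with fructose. WT with fructose lay above every other library, and the KO groups overlapped. The transcript rose 2.93-fold in WT (1.55 ± 0.073 (adjusted p = 3.11e-10)) and its KO change was 0.12 ± 0.071 (adjusted p = 0.404), with an interaction of −1.43 ± 0.10 (adjusted p = 1.53e-07). Slc2a10, a hexose transporter of internal membranes, went the other way, with an interaction of 0.74 ± 0.15 and a fall of 0.72 in WT. Slc2a5 encodes GLUT5, the fructose transporter; its level was 0.82, 0.615 and 0.621 CPM in WT with glucose and 1.63, 0.946 and 1.75 with fructose. KO libraries held 26.7, 13.9 and 18.8 CPM with glucose and 32.2, 30.4 and 28.5 with fructose. All 6 KO libraries were above all 6 WT libraries, and the rise with fructose was called in WT (1.21 ± 0.32 (adjusted p = 0.00644)), not in KO (0.61 ± 0.20 (adjusted p = 0.101)), while the interaction was not called (−0.59 ± 0.38 (adjusted p = 0.284)). Over the 8 hexose transporters tested, 1 interaction was positive, 1 was negative and the median was 0.13 beside 0.03 over all genes, and 2 of 8 is near the 25.2% called over all genes.

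Txnip (chr2:198683159-198686974, plus strand), the thioredoxin-interacting protein that glucose induces and that holds glucose uptake down, had the most positive interaction of the genes described here. Its level was 86.7, 72.9 and 87.2 CPM in WT with glucose and 1.09, 0.249 and 0.824 with fructose. KO libraries held 48.9, 44.5 and 53.7 CPM with glucose and 27.9, 20.6 and 30.9 with fructose. In WT the transcript nearly vanished with fructose in every library, while in KO it fell and remained well above that level. The fall was 105-fold in WT (−6.71 ± 0.26 (adjusted p = 8.53e-10)) and 1.86-fold in KO (−0.90 ± 0.17 (adjusted p = 0.00866)), an interaction of 5.81 ± 0.33 (adjusted p = 1.82e-07). Its relative Arrdc4 fell in WT from 12.7 to 14.9 CPM with glucose to 0.309 to 0.598 CPM with fructose (−4.71 ± 0.31 (adjusted p = 1.39e-07)), and had no count in any KO library, so it has no KO change. Klf10, a zinc finger factor induced by glucose, fell in WT (−1.13 ± 0.086) with an interaction of 0.91 ± 0.12. Of 7 genes of glucose sensing tested, 2 were called, both positive, again near that share.

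Genes of fructose use were called in part. Khk, ketohexokinase, was measured at 0.82, 0.82 and 1.24 CPM in WT with glucose and 0.489, 0.349 and 0.876 with fructose. KO libraries held 0.718, 0.242 and 0.754 CPM with glucose and 0.24, 0.434 and 0.401 with fructose. The groups overlapped at about 1 CPM or less and no contrast was called. Akr1b1, aldose reductase, which opens the polyol route from glucose to fructose, rose in WT (0.79 ± 0.12) with an interaction of −0.87 ± 0.16, and Sord, sorbitol dehydrogenase, the next step, had an interaction of −0.36 ± 0.097. Tkfc, which phosphorylates glyceraldehyde from fructose, fell in WT (−0.81 ± 0.088) with an interaction of 0.59 ± 0.12. Those were the 3 calls among 6 members tested, a small list, beside 25.2% called over all genes.

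Around phosphofructokinase the platelet and muscle isoforms went opposite ways. Pfkp, the platelet isoform, rose in WT (1.01 ± 0.07) with an interaction of −0.82 ± 0.098, while Pfkm, the muscle isoform, fell in WT (−1.15 ± 0.097) with an interaction of 1.01 ± 0.14. With Pfkfb3 they were the 3 calls among 8 members of that family tested, beside 25.2% over all genes. Hk2, the inducible hexokinase, was at 237, 236 and 239 CPM in WT with glucose and 519, 558 and 492 with fructose. KO libraries held 275, 286 and 263 CPM with glucose and 348, 356 and 332 with fructose. The sugars were separate in both genotypes, with the wider gap in WT. It rose 2.42-fold in WT (1.28 ± 0.069 (adjusted p = 9.38e-10)) and 1.25-fold in KO (0.33 ± 0.068 (adjusted p = 0.0088)), with an interaction of −0.95 ± 0.096 (adjusted p = 4.64e-06). The KO call of Hk2 was lost without KO glucose replicate 3 and in the fit of all 24 libraries. Aldoa, the main aldolase of these cells, rose in WT (0.71 ± 0.068) with an interaction of −0.63 ± 0.095. Hk1 had an interaction of −0.32 ± 0.10 and the muscle enolase Eno3 of 0.40 ± 0.13. The Hk1 call was lost in 3 of the 12 fits that left out a library (adjusted p up to 0.0799) and the Eno3 call in 7 of the 12 fits that left out a library (adjusted p up to 0.101). No other of the 16 glycolytic enzymes tested was called. With 3 negative and 1 positive the list was near the 25.2% called over all genes, and its median was −0.16. Ldha, lactate dehydrogenase A, was not called, at 0.24 ± 0.10 (adjusted p = 0.102). It was called with library totals alone (0.38, adjusted p = 0.00558) and with the replicate number as a block. Of 5 pentose phosphate enzymes 3 were called, all negative: Taldo1 (transaldolase, −0.84 ± 0.14), Tkt (transketolase, −0.37 ± 0.086) and Pgls (the lactonase, −0.47 ± 0.14). The calls of Pgls and Sord did not hold with libraries scaled by their totals alone.

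Glycogen genes were called in both directions, with 7 negative and 2 positive interactions among 13 tested and a median of −0.73. Those that rose in WT included Gbe1, the branching enzyme (1.71 ± 0.092, interaction −1.38 ± 0.13), Ppp1r3b, a glycogen-targeting subunit of protein phosphatase (1.73 ± 0.11, interaction −1.18 ± 0.17), and Ppp1r3c, a related subunit (1.14 ± 0.21, interaction −1.57 ± 0.33). Stbd1, which ties glycogen to membranes, lay among the most negative interactions of named genes that passed the level limits given with the methods. It stood at 3.63, 4.77 and 3.25 CPM in WT with glucose and 46.1, 58.4 and 49.2 with fructose. KO libraries held 1.68, 1.06 and 2.86 CPM with glucose and 3.24, 1.39 and 2.52 with fructose. Its WT libraries with fructose were all above the other 9, and its interaction was −3.52 ± 0.46 (adjusted p = 0.000166). Pygm, muscle glycogen phosphorylase, fell in WT (−1.53 ± 0.31), with an interaction of 1.60 ± 0.45. In the hexosamine pathway Mgea5, which removes O-GlcNAc from proteins (now named Oga), fell in WT (−1.39 ± 0.11) with an interaction of 1.62 ± 0.15. It was the 1 positive call among 9 tested, and 2 were negative, beside 12.5% and 12.7% over all genes. The negative count ran from 0 to 2 when single libraries were left out.

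**Figure D2:**
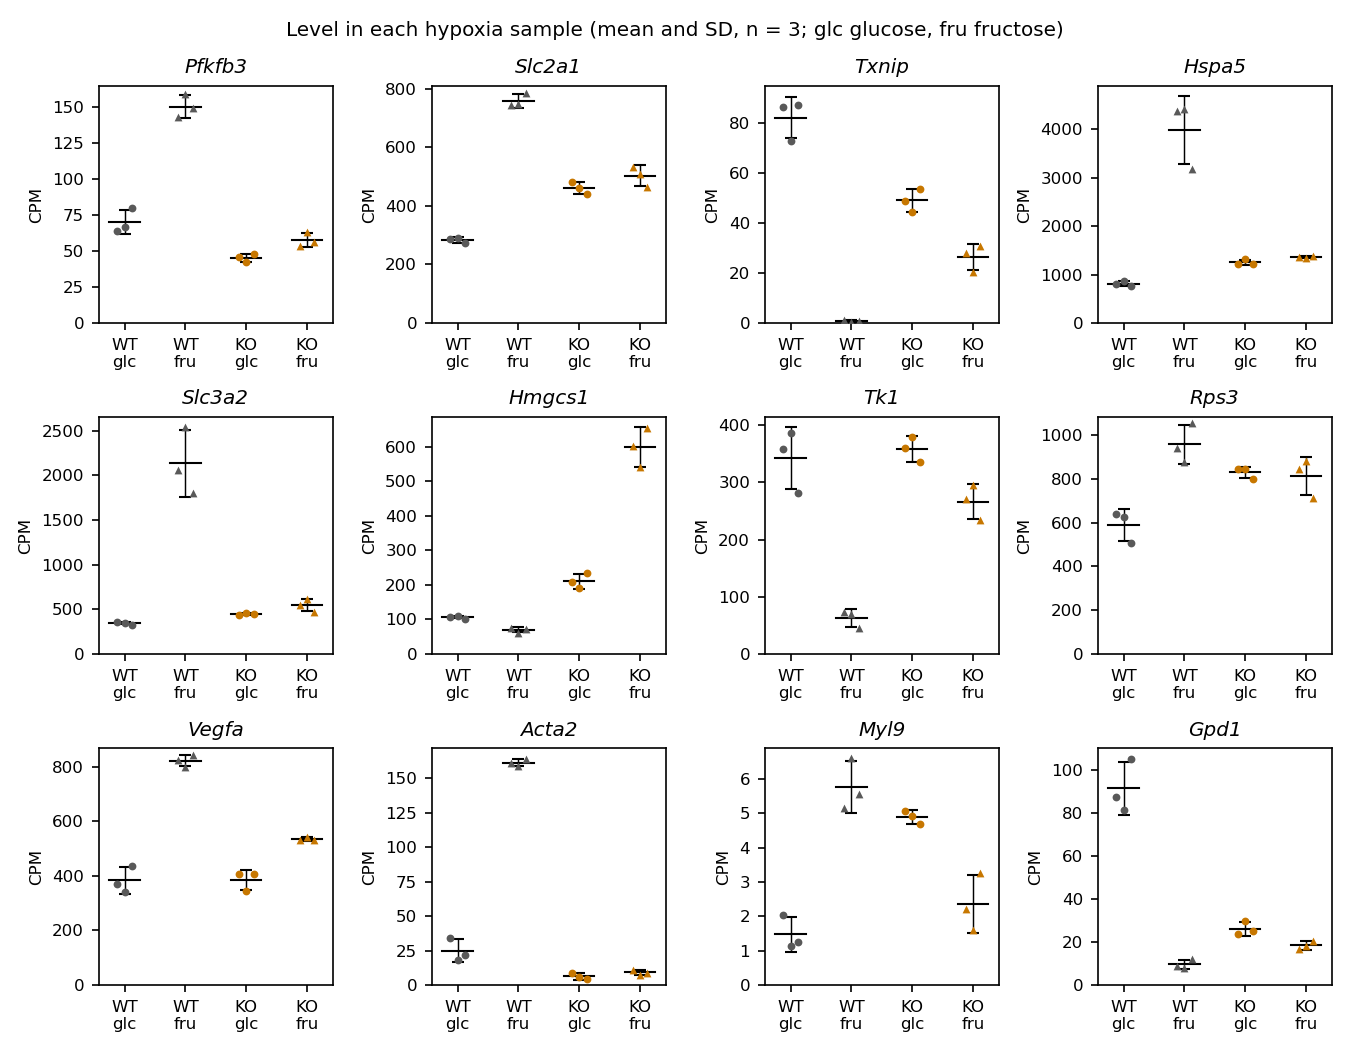
Level (CPM, from 0) of 12 genes in the 12 hypoxia libraries, 1 panel a gene and 1 point a library, with the mean and SD of each group of 3, for WT (grey) and KO (orange) with glucose (circles) and fructose (triangles). For Slc2a1, Hspa5 and Slc3a2 the WT libraries with fructose stand above the other 9, Txnip and Tk1 fall in WT with fructose, and Hmgcs1 rises in KO with fructose.

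The chaperones of the ER rose together in WT and scarcely in KO. Of 19 tested, 18 were called and all 18 were negative, with a median of −1.45; in WT 18 rose, with a median of 1.48, and in KO 1 rose, 1 fell and the median was 0.018. Hspa5 (chr3:13838304-13842762, plus strand), which encodes BiP, the Hsp70 of the ER, stood at 801, 868 and 762 CPM in WT with glucose and 4370, 4429 and 3173 with fructose. KO libraries held 1213, 1315 and 1225 CPM with glucose and 1356, 1353 and 1384 with fructose. Its WT libraries with fructose were far above all others, and the KO groups, though separate, lay close. It rose 5.41-fold in WT (2.44 ± 0.11 (adjusted p = 4.26e-10)), had a change of 0.12 ± 0.11 (adjusted p = 0.617) in KO, and had an interaction of −2.31 ± 0.15 (adjusted p = 1.33e-07). Sdf2l1, a partner of BiP and the chaperone with the most negative interaction, was at 19.1, 22.4 and 19.6 CPM in WT with glucose and 140.1, 140.5 and 121 with fructose. KO libraries held 54.4, 56.7 and 46.3 CPM with glucose and 39.6, 52.6 and 41 with fructose. Only the WT groups were separate, and the interaction was −3.10 ± 0.17 (adjusted p = 2e-08). Hyou1, an exchange factor for BiP (interaction −2.52 ± 0.11), and Calr, calreticulin, a chaperone of glycoproteins (interaction −2.03 ± 0.089), rose 5.61-fold and 4.19-fold in WT.

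Creld2, a secreted factor that ER stress induces, went in opposite directions in WT and KO. Its levels were 62.6, 77.2 and 57.2 CPM in WT with glucose and 194, 179.9 and 136 with fructose. KO libraries held 90.8, 111 and 97.2 CPM with glucose and 66.6, 72.1 and 56.2 with fructose. Fructose libraries were above glucose libraries in WT and below them in KO, without overlap. The change was 1.51 ± 0.16 (adjusted p = 8.94e-06) in WT and −0.62 ± 0.16 (adjusted p = 0.0427) in KO, and the interaction −2.12 ± 0.22 (adjusted p = 3.69e-05). The KO call was lost in 8 of the 12 fits that left out a library (adjusted p up to 0.159). No omission of a library altered the count of 18 negative chaperones.

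Sequence near the start of a pair of these genes is shown for the element that several of them share. RefSeq promoter windows of GRCr8, 250 bases before to 50 after the gene start, were matched by gene identifier or symbol for 16 of the 19. The ER stress element, CCAAT followed after 9 bases of any kind by CCACG and searched on both strands, was found in 6 of those, 37.5%, and in 0.0765% of all 27457 promoters of the table (0.15% of those of tested genes). It contains the CCAAT box, which was in 13 chaperone promoters (81.2%) and 37.7% of all (38.1% of tested genes). Hspa5 (chr3:38452766-38453065, plus strand) and Creld2 (chr7:121789134-121789433, plus strand), the main ER chaperone and the member with opposite responses, both hold it, in capitals below, as written 5′ to 3′ on the strand of the gene.
Hspa5: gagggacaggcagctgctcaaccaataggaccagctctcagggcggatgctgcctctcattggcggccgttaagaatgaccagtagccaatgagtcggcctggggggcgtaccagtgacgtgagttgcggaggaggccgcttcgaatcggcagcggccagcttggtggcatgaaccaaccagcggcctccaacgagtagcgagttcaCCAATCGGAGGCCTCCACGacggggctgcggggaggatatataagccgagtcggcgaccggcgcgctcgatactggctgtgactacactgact
Creld2: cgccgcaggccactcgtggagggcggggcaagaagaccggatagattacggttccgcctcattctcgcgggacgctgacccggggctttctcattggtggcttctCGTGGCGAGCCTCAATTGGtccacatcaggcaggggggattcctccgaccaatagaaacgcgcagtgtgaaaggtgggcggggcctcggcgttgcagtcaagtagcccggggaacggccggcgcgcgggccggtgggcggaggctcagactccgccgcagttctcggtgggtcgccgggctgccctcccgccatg
The match in Creld2 reads on the opposite strand. A match is a description of the letters and says nothing of binding in these cells.

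Regulators of the unfolded protein response and the degradation of ER proteins moved the same way less uniformly. Of 20 tested, 10 were negative and 2 positive, with a median of −0.33. Sel1l, the scaffold of the ubiquitin ligase that clears ER proteins, rose 4.09-fold in WT (2.03 ± 0.073), with an interaction of −1.78 ± 0.10. Atf6, a membrane-bound transcription factor of the response, rose 3.32-fold in WT and 1.36-fold in KO, both called (interaction −1.29 ± 0.11). Herpud1 (−0.78 ± 0.12), Vimp (selenoprotein S, −0.91 ± 0.13) and Derl1 (−0.75 ± 0.098), members of the same degradation machinery, were also negative. In N-glycan synthesis 7 of 29 were negative and 3 positive, with a median of −0.18; the negative ones included the oligosaccharyltransferase subunits Ddost (−0.76 ± 0.094), Rpn1 (−0.69 ± 0.085) and Rpn2 (−0.70 ± 0.084). Leaving out single libraries gave 6 to 8 negative and 1 to 3 positive.

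Genes of the ATF4 amino acid response, which import and make amino acids under stress, rose in WT and, fewer of them, in KO. Of 32 tested, 26 rose and 1 fell in WT, 8 rose and 0 fell in KO, and 16 interactions were negative with 1 positive, at a median of −0.56. Slc3a2 (chr1:224906554-224921092, minus strand), the heavy chain of the large neutral amino acid transporters, stood at 354, 349 and 329 CPM in WT with glucose and 2058, 2542 and 1802 with fructose. KO libraries held 432, 454 and 453 CPM with glucose and 551, 616 and 474 with fructose. Its WT libraries with fructose were far above the other 9, and the KO groups were separate but close. The rise was 6.82-fold in WT (2.77 ± 0.12 (adjusted p = 7.28e-10)) against 0.29 ± 0.12 (adjusted p = 0.19) in KO, an interaction of −2.48 ± 0.17 (adjusted p = 3.23e-07). Slc6a9, a glycine transporter (interaction −1.81 ± 0.16), and Pycr1, a proline synthesis enzyme (interaction −1.67 ± 0.28), rose 4.56-fold and 3.78-fold in WT.

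Fgf21, a stress-induced hormone, was low, at 2.69, 2.67 and 3.73 CPM in WT with glucose, 9.78, 10.3 and 11.4 CPM in WT with fructose, 3.16, 3.63 and 7.6 CPM in KO with glucose and 3.6, 4.39 and 3.09 CPM in KO with fructose; it rose in WT only, with an interaction of −2.29 ± 0.40 (adjusted p = 0.000521). Cth, the last enzyme of cysteine synthesis, rose in WT (2.84 ± 0.29, interaction −1.94 ± 0.38). Atf4 itself was measured at 642, 669.7 and 601 CPM in WT with glucose and 1036, 1183 and 1079 with fructose. KO libraries held 807, 906 and 951 CPM with glucose and 988, 1183 and 949 with fructose. Only in WT were the sugars separate, and the interaction was −0.70 ± 0.13 (adjusted p = 0.000956). Ddit3, the stress factor CHOP, rose 3.12-fold in WT and had a change of 0.32 ± 0.13 (adjusted p = 0.2) in KO, with an interaction of −1.32 ± 0.19 (adjusted p = 0.000205). The window of Pycr1 (chr10:106420763-106421062, minus strand) is given as an example of the composite ATF4 element TGATGNAA, in capitals, which 8 of 29 matched promoters of the list held (27.6%) beside 3.82% of all promoters (1.83% of tested genes).
Pycr1: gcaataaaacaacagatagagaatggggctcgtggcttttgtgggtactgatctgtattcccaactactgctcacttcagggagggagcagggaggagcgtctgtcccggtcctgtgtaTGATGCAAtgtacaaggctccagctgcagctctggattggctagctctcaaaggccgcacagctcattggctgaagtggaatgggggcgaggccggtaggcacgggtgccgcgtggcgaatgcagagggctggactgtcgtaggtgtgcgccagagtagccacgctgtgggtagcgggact
Aminoacyl-tRNA synthetases, which charge tRNAs and include ATF4 targets, had 7 negative interactions of 20 tested and a median of −0.093, led by Wars (−1.17 ± 0.13), Sars (−0.54 ± 0.098) and Qars (−0.51 ± 0.089). With library totals alone in place of TMM factors the count was 3.

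Sterol synthesis genes answered fructose more in KO than in WT. All 24 tested genes of cholesterol synthesis and uptake rose in KO, with a median of 1.19, while in WT 7 rose, 5 fell and the median was 0.088. The interaction was positive for 23 and negative for 0, with a median of 1.03. Hmgcs1 (chr2:52431601-52445055, plus strand), the synthase that feeds the pathway, stood at 107, 109.9 and 103 CPM in WT with glucose and 76, 61.7 and 71.8 with fructose. KO libraries held 208, 190.4 and 234 CPM with glucose and 601, 541 and 655 with fructose. Fructose libraries were below glucose libraries in WT and far above them in KO, without overlap. The change was −0.48 ± 0.092 (adjusted p = 0.000478) in WT and 1.50 ± 0.091 (adjusted p = 1.03e-07) in KO, 2.84-fold, and the interaction was 1.98 ± 0.13 (adjusted p = 7.24e-08). Acat2, which makes its substrate in the cytosol, was likewise opposite (−0.62 ± 0.11 in WT, 1.55 ± 0.10 in KO, interaction 2.17 ± 0.15).

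Dhcr7, the last reductase of cholesterol synthesis, changed in KO only (1.37 ± 0.12, interaction 1.57 ± 0.17), as did Idi1, the isomerase of isoprenoid units (1.28 ± 0.10, interaction 1.49 ± 0.15) and Hsd17b7, a sterol reductase (1.53 ± 0.13, interaction 1.38 ± 0.18). The sterol element TCACNCCAC was in 0 of 17 matched promoters and 1.13% of all (1.22% of tested genes), and the CCAAT box in 14 of 17 (82.4%).

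Fatty acid synthesis and desaturation followed in part, with 8 positive and 2 negative interactions of 15 and a median of 0.41. Scd1, the desaturase that makes oleate, stood at 137, 116 and 136 CPM in WT with glucose and 156, 117 and 146 with fructose. KO libraries held 186, 161 and 216 CPM with glucose and 557, 436 and 565 with fructose. Only the KO groups were separate, with a rise of 2.77-fold (1.47 ± 0.13 (adjusted p = 2.64e-05)) and an interaction of 1.23 ± 0.18 (adjusted p = 0.000339). Acss2, which makes acetyl-CoA from acetate, rose in KO only (3.84-fold, 1.94 ± 0.15 (adjusted p = 1.46e-06), interaction 2.21 ± 0.21 (adjusted p = 3.76e-06)). Fads1 and Fads2, desaturases of polyunsaturated fatty acids, fell in WT (−1.31 ± 0.21 and −1.07 ± 0.096), and Fads2 rose in KO (0.42 ± 0.094), a call lost in 3 of the 12 fits that left out a library (adjusted p up to 0.068). Their interactions were 1.74 ± 0.29 and 1.50 ± 0.13. Acly, which makes cytosolic acetyl-CoA from citrate, rose in both genotypes with an interaction of 0.15 ± 0.085 (adjusted p = 0.202), called at 0.29 (adjusted p = 0.0107) with library totals alone.

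Most genes of fatty acid oxidation leaned the same way through a fall in WT. Of 17 tested 10 fell and 1 rose in WT, 1 fell and 0 rose in KO, and 8 interactions were positive with 1 negative, at a median of 0.31. The fitted interactions ran from −4.61 to 1.78, so the largest in size was negative. Cpt1a, the gate of fatty acid entry into mitochondria, was at 108, 104 and 116 CPM in WT with glucose, 33.6, 32.2 and 38.2 CPM in WT with fructose, 34.8, 37.7 and 36.6 CPM in KO with glucose and 44, 37 and 49.7 CPM in KO with fructose, with WT glucose above all other libraries and an interaction of 1.78 ± 0.14 (adjusted p = 3.23e-07). Acaa2 (0.51 ± 0.14) and Hadh (1.08 ± 0.28), enzymes of the oxidation spiral, were also positive. The count of 8 fell to 3 without WT hypoxia fructose replicate 2. Among 20 enzymes of the TCA cycle 2 were called, both positive: Ogdh (0.74 ± 0.17), the core of the oxoglutarate dehydrogenase, and Fh, fumarase (0.56 ± 0.14). In the nuclear-encoded respiratory chain 4 were positive and 2 negative of 29, with a median of 0.046; leaving out single libraries gave 1 to 4 positive and 1 to 2 negative. The respiratory chain shares are close to or below those of all genes (12.5% positive, 12.7% negative), as is the TCA cycle count.

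Cell division genes fell in WT with fructose and fell little in KO. All 33 DNA replication genes tested fell in WT, with a median of −1.21, and 6 fell in KO, with a median of −0.27; 31 interactions were positive and 0 negative, with a median of 0.97. Tk1 (chr10:106817601-106828884, minus strand), the thymidine kinase of S phase, stood at 358, 386 and 281 CPM in WT with glucose and 73.2, 69.8 and 44.8 with fructose. KO libraries held 361, 379 and 335 CPM with glucose and 270.2, 295 and 233 with fructose. WT libraries with fructose were far below the other 9. The fall was 4.98-fold in WT (−2.31 ± 0.20 (adjusted p = 4.2e-06)) and 1.35-fold in KO (−0.43 ± 0.18 (adjusted p = 0.244)), with an interaction of 1.88 ± 0.27 (adjusted p = 0.000545). Cdc6, which loads the replicative helicase, was at 50.1, 60.1 and 42.2 CPM in WT with glucose, 13, 13.8 and 6.8 CPM in WT with fructose, 39, 48.9 and 40.0 CPM in KO with glucose and 31.3, 37.8 and 30.7 CPM in KO with fructose, and had an interaction of 1.69 ± 0.33 (adjusted p = 0.00322). Rrm2, the ribonucleotide reductase subunit (interaction 1.39 ± 0.28), and Orc6 of the origin complex (1.25 ± 0.20) fell in WT as well.

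Mitosis genes were called in 24 of 29, all positive, with a median of 0.73; all 29 fell in WT and 1 fell in KO. Kif23, a motor of the dividing bridge, was at 129, 129 and 116 CPM in WT with glucose, 48.6, 49.3 and 45.3 CPM in WT with fructose, 118, 119 and 114 CPM in KO with glucose and 106, 99.2 and 113 CPM in KO with fructose, with WT fructose apart from all others and an interaction of 1.10 ± 0.10 (adjusted p = 2.5e-06). Nuf2 (1.14 ± 0.13) and Ndc80 (1.04 ± 0.10) of the kinetochore, the motor Cenpe (1.06 ± 0.11) and the checkpoint kinase Ttk (1.03 ± 0.12) followed. Ccne1, the cyclin that opens S phase, lay among the most positive interactions of named genes that passed the level limits given with the methods. It was at 25.1, 29.5 and 19.4 CPM in WT with glucose, 3.21, 4.68 and 1.91 CPM in WT with fructose, 14, 13.7 and 12.9 CPM in KO with glucose and 10.4, 13.2 and 10.5 CPM in KO with fructose (interaction 2.53 ± 0.34 (adjusted p = 0.000102)).

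An E2F element, TTTCCCGC or TTTGGCGC on either strand, was in 11 of 27 matched replication promoters (40.7%), in 0 of 24 mitosis promoters and in 1.53% of all (3.06% of tested genes). The mitosis promoters held TTTGAA, the cell cycle homology element, in 17 (70.8% beside 18.1% of all and 11.6% of tested genes) and the CCAAT box in 17. Mcm6, a subunit of the replicative helicase, was chosen after its values were seen, for this element, which stands in capitals in its window (chr13:42404303-42404602, minus strand).
Mcm6: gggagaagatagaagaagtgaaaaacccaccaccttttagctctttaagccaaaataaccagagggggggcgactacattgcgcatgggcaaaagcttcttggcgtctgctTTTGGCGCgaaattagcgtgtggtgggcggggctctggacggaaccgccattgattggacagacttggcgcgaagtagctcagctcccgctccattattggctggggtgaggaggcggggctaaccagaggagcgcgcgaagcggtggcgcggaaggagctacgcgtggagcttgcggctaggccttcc
Its levels were 404, 482 and 361 CPM in WT with glucose, 147, 157 and 109.6 CPM in WT with fructose, 192, 199 and 189.7 CPM in KO with glucose and 159.8, 166 and 156 CPM in KO with fructose, and its interaction was 1.19 ± 0.18 (adjusted p = 0.000328).

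**Figure D3:**
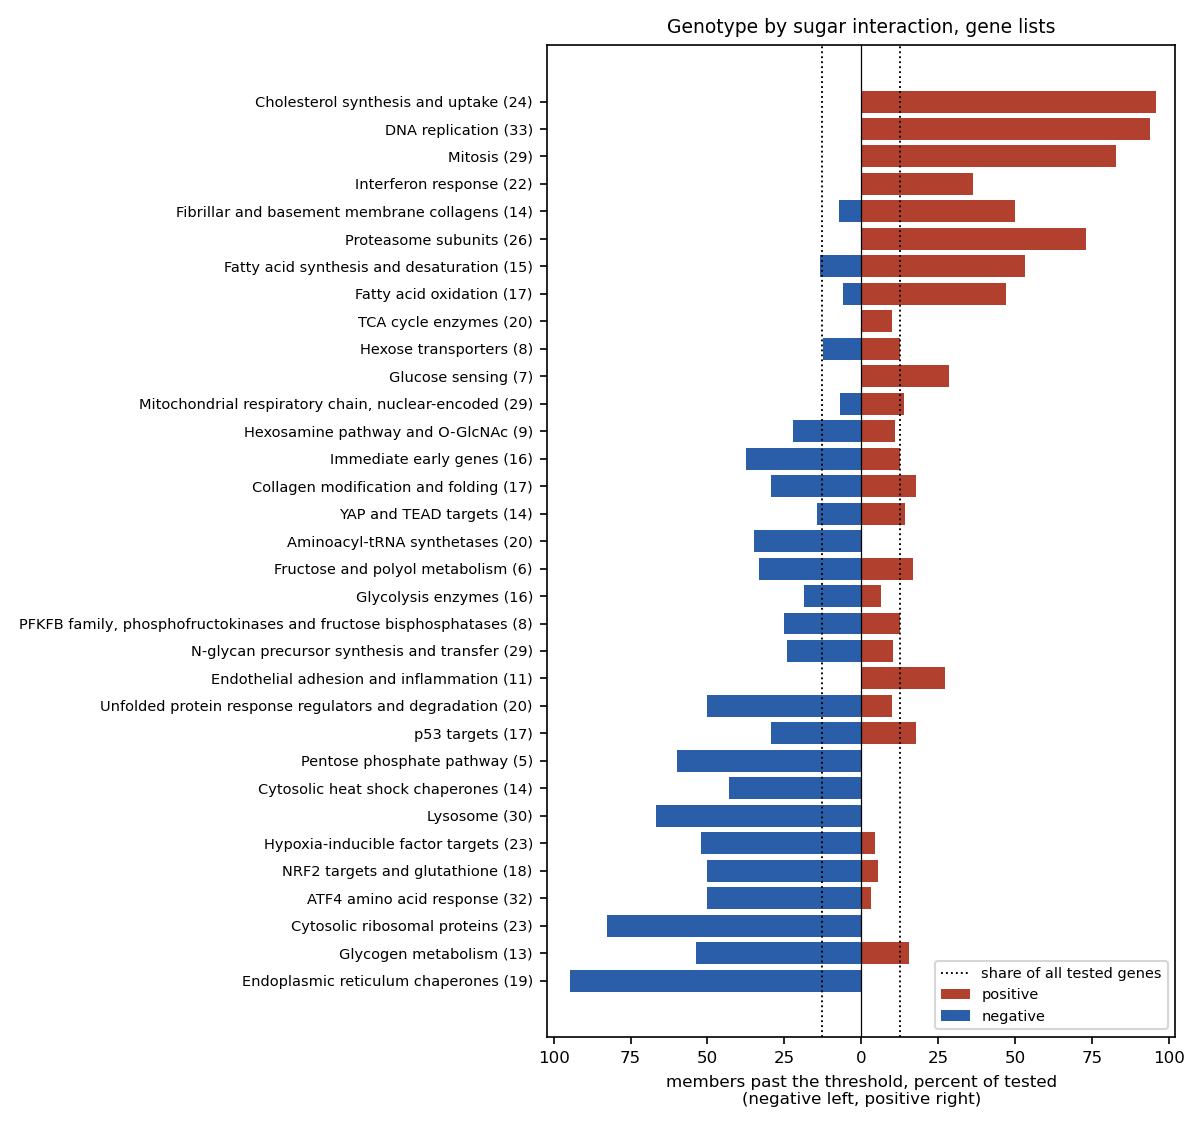
For each gene list (rows), the share of tested members (x axis, percent) with a positive or a negative called interaction in hypoxia, with the number tested, beside the shares over all genes (12.5% and 12.7%, dotted). Chaperones, ribosomal proteins and lysosome genes stand out on the negative side, and cholesterol, replication, mitosis and proteasome genes on the positive side.

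Ribosomal protein genes rose in WT. Of 23 cytosolic ribosomal proteins tested, 21 rose in WT, none was called in KO and 19 interactions were negative with 0 positive, at a median of −0.68. Rps3, of the small subunit, was at 637, 627 and 507 CPM in WT with glucose, 938, 877 and 1054 CPM in WT with fructose, 843, 843 and 799.5 CPM in KO with glucose and 842, 880.0 and 714 CPM in KO with fructose; the WT groups were separate and the KO groups overlapped, and its interaction was −0.86 ± 0.15 (adjusted p = 0.000532). Rps18 (−0.91 ± 0.18) and Rps20 (−0.83 ± 0.16) were close to it. Ribosomal protein genes have many near-identical pseudogenes, so their counts depend on how reads that map to several places were treated, which is not given.

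Proteasome subunits went the other way: 22 of 26 fell in WT, none was called in KO, and 19 were positive with 0 negative, at a median of 0.42. Psmd1, a scaffold of the regulatory particle, was at 242, 252 and 213 CPM in WT with glucose, 159, 155 and 120.0 CPM in WT with fructose, 220.4, 229 and 203 CPM in KO with glucose and 244, 261 and 274 CPM in KO with fructose, with an interaction of 0.82 ± 0.15 (adjusted p = 0.000737). The count of 19 fell to 12 without KO hypoxia glucose replicate 3. Lysosome genes rose in WT in 23 of 30 and in KO in 6, and 20 interactions were negative with 0 positive, at a median of −0.48. Npc1, which exports cholesterol from lysosomes, was at 87.4, 85.4 and 88.3 CPM in WT with glucose and 308, 328 and 278 with fructose. KO libraries held 142, 138 and 142 CPM with glucose and 185, 184 and 196 with fructose. It rose in both genotypes, 3.85-fold and 1.33-fold, with an interaction of −1.53 ± 0.096 (adjusted p = 4.58e-08). Mcoln1, a lysosomal calcium channel (−1.50 ± 0.094), Gpnmb, a membrane glycoprotein of lysosomes (−1.39 ± 0.11), Lipa, the acid lipase (−1.21 ± 0.099), and Gaa, the acid glucosidase that breaks down glycogen (−1.12 ± 0.14), were negative too. The E-box CACGTG was in 6 of 23 lysosome promoters (26.1%) and 6.65% of all (9.48% of tested genes).

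**Figure D4:**
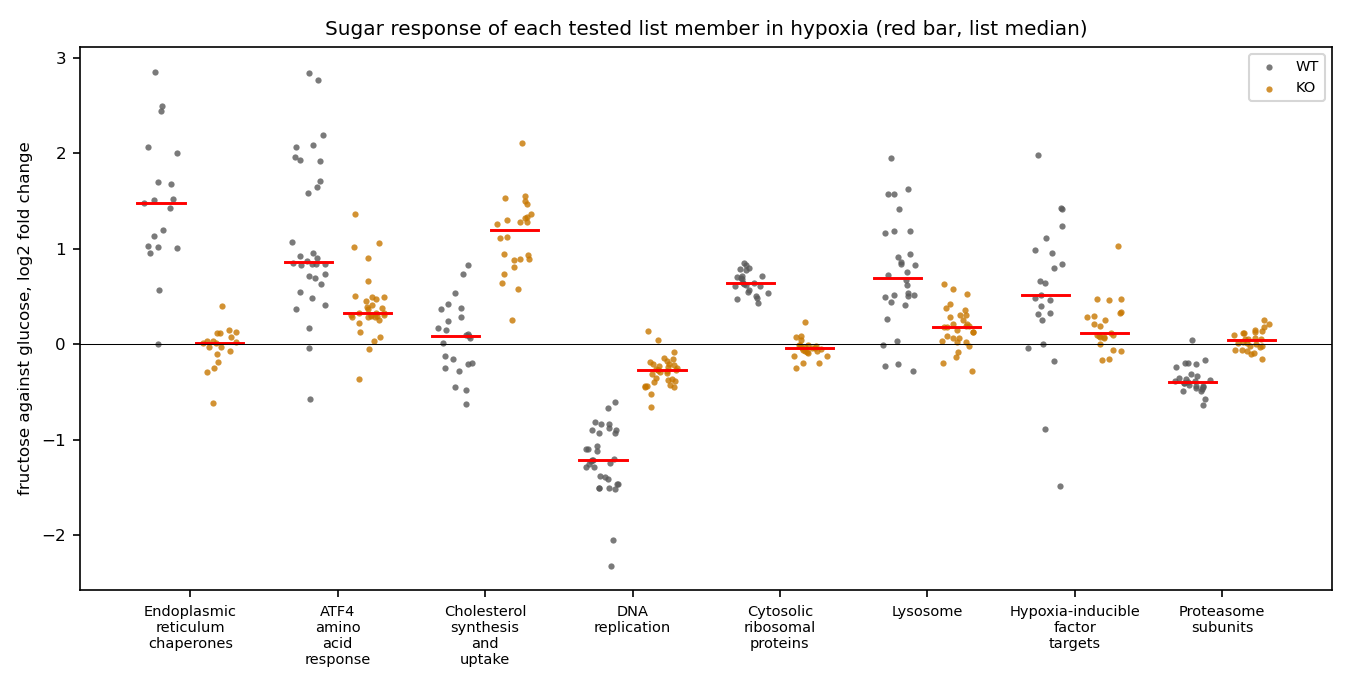
Log2 change from glucose to fructose in hypoxia (y axis) of every tested member of 8 gene lists (x axis), 1 point a gene, in WT (grey) and KO (orange), with the list median as a red bar. In WT the chaperones, ATF4 targets, ribosomal proteins and lysosome genes lie mostly above 0 and the replication and proteasome genes below it. In KO the median of the cholesterol genes is 1.19, and the other medians run from −0.273 (replication) to 0.325 (ATF4 targets).

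Targets of the hypoxia-inducible factor, though every library came from hypoxia, still differed by sugar. Of 23 tested, 16 rose and 1 fell in WT with fructose, 4 rose in KO, and 12 interactions were negative with 1 positive, at a median of −0.48. Vegfa (chr9:17340341-17355681, plus strand), the main growth factor for vessels, was at 372, 343 and 438 CPM in WT with glucose and 825, 801 and 843 with fructose. KO libraries held 406, 345 and 407 CPM with glucose and 531, 544 and 534 with fructose. It rose in both genotypes without overlap, 2.36-fold in WT (1.24 ± 0.082 (adjusted p = 8.99e-09)) and 1.39-fold in KO (0.47 ± 0.081 (adjusted p = 0.00241)), with an interaction of −0.76 ± 0.11 (adjusted p = 0.000162). Hilpda, which guards lipid droplets (−1.51 ± 0.18), Adm, the vasodilator adrenomedullin (−1.10 ± 0.16), Ero1l, the oxidase of ER protein folding (−1.08 ± 0.13), and Pdk1, which blocks pyruvate entry to the TCA cycle (−0.90 ± 0.12), were negative. The positive member, Angptl4, a lipase inhibitor that is also a target of fatty acid receptors, fell in WT (−1.49 ± 0.35, interaction 2.51 ± 0.55). The core ACGTG was in 13 of 19 matched promoters (68.4%) and 19.7% of all (25.9% of tested genes).

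Stress and immune genes were mixed. Of 18 NRF2 targets and glutathione genes 9 were negative and 1 positive, with a median of −0.56: Ftl1, a ferritin chain (−1.40 ± 0.15), Osgin1 (−1.10 ± 0.21) and Hmox1, heme oxygenase (−0.74 ± 0.16), rose in WT. Cytosolic heat shock chaperones had 6 negative of 14 and a median of −0.43, among them Hspa8 (−1.26 ± 0.28), Dnajb1 (−0.77 ± 0.19) and Hsp90ab1 (−0.62 ± 0.092). Interferon response genes had 8 positive of 22 and a median of 0.73; 10 fell in WT and 2 rose in KO. Mx2, an antiviral GTPase, was at 16.2, 30.8 and 24.3 CPM in WT with glucose, 5.7, 7.47 and 8.04 CPM in WT with fructose, 2.06, 3 and 2.48 CPM in KO with glucose and 3.6, 3.43 and 2.69 CPM in KO with fructose, with an interaction of 1.98 ± 0.33 (adjusted p = 0.000397). Ddx58, the RNA sensor RIG-I (1.20 ± 0.28), and Isg15 (0.92 ± 0.21) fell in WT as well. Of 11 genes of endothelial adhesion and inflammation 3 were positive and 0 negative, near the 25.2% called over all genes. The positive count was 1 to 3 when single libraries were left out. In WT 4 rose and 3 fell. The median interaction was −0.24, and 7 of the 11 fitted values were negative, down to −2.8. Csf3, a granulocyte growth factor, led the called ones at 2.29 ± 0.36.

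Early response and p53 lists were called in both directions. Immediate early genes had 6 negative and 2 positive of 16, with Klf4 (−1.67 ± 0.14) and Myc (−1.10 ± 0.14) rising in both genotypes and more in WT, and Egr1 (2.37 ± 0.43) and Klf2, a flow-induced endothelial factor (1.27 ± 0.23), falling in WT. The KO call of Myc did not hold in the fit of all 24 libraries (adjusted p = 0.167). The p53 targets had 5 negative and 3 positive of 17, led by Fas, the death receptor (−1.06 ± 0.25), and Gadd45a (−1.03 ± 0.14); without single libraries the counts ran from 3 to 7 and from 0 to 3. Targets of YAP and TEAD had 2 of each sign among 14, about the shares of all genes (12.5% and 12.7%), among them Tead4 (0.64 ± 0.16) and Ptpn14 (−0.50 ± 0.11), and 1 to 3 negative and 1 to 2 positive when single libraries were left out.

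Collagen chains fell with fructose, more of them in WT. Of 14 fibrillar and basement membrane collagens 10 fell in WT and 5 in KO, and 7 interactions were positive with 1 negative, at a median of 0.62. Col1a1 (chr10:82745801-82762789, plus strand), a chain of type I collagen, was at 12480, 11840 and 13110 CPM in WT with glucose and 5081, 5172 and 4762 with fructose. KO libraries held 2522, 2624 and 2731 CPM with glucose and 2015, 1777 and 2012 with fructose. It fell 2.27-fold in WT and 1.36-fold in KO, with an interaction of 0.74 ± 0.097 (adjusted p = 5.21e-05). Col3a1, the chain of type III collagen, was far lower, at 45.6, 46.4 and 64.4 CPM in WT with glucose, 3.75, 3.39 and 5.87 CPM in WT with fructose, 1.39, 1.4 and 2.42 CPM in KO with glucose and 0.841, 0.434 and 0.802 CPM in KO with fructose (interaction 2.10 ± 0.44 (adjusted p = 0.0027)). Col6a2 (2.54 ± 0.46) and Col5a1 (0.63 ± 0.10) were positive as well. In the modification and folding of collagen 7 rose and 7 fell in WT, and 3 interactions were positive and 5 negative of 17, among them the lysyl oxidases Loxl3 (0.67 ± 0.12) and Loxl4 (−0.94 ± 0.092), the hydroxylase P4ha3 (0.79 ± 0.16), the protease Bmp1 (0.69 ± 0.096) and Plod3 (−0.63 ± 0.085).

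Of 7 smooth muscle and pericyte markers tested, 3 rose in WT with fructose and 1 in KO. Acta2 (chr1:252537615-252550394, minus strand), smooth muscle actin, was at 34.1, 18.3 and 21.9 CPM in WT with glucose and 161, 159 and 164 with fructose. KO libraries held 8.86, 5.57 and 4.26 CPM with glucose and 11.2, 7.47 and 8.82 with fructose. The WT groups did not overlap and all KO libraries were below both. It rose 7.17-fold in WT (2.84 ± 0.27 (adjusted p = 1.56e-05)) and had a change of 0.53 ± 0.32 (adjusted p = 0.441) in KO, with an interaction of −2.31 ± 0.41 (adjusted p = 0.00286). Tagln, transgelin, rose in WT (1.94 ± 0.17, interaction −2.18 ± 0.23), as did Tgfb1i1, outside that list, a focal adhesion protein that TGF-beta induces (2.56 ± 0.096, interaction −2.78 ± 0.13). Myl9, also outside it and the light chain of smooth muscle myosin, rose in WT and fell in KO, with 2.05, 1.13 and 1.24 CPM in WT with glucose, 5.16, 6.62 and 5.56 CPM in WT with fructose, 5.07, 4.94 and 4.69 CPM in KO with glucose and 2.22, 1.61 and 3.27 CPM in KO with fructose; its interaction was −3.18 ± 0.40 (adjusted p = 3.32e-05). Des, desmin, rose in both genotypes (0.95 ± 0.068 and 0.33 ± 0.065); its log2 interaction was −0.63 ± 0.094, but in CPM the rise was larger in KO, by 10.2 CPM.

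Markers of other cell types moved with these groups, and their part in the results was not tested. The summed level of the smooth muscle and pericyte list was 113 to 131 CPM in WT with glucose, 316 to 340 with fructose, 254 to 266 in KO with glucose and 287 to 298 with fructose, and 3 of 7 tested were negative; Cnn1, Rgs5 and Myocd were under 1 CPM throughout. Fibroblast markers summed to 13200 to 14700 CPM in WT with glucose, 5500 to 5990 with fructose, 3110 to 3420 in KO with glucose and 2360 to 2650 with fructose, nearly all of it collagen, and all 3 tested were positive. Pdgfra, Dcn, Lum and Tcf21 were under 1 CPM throughout. Endothelial markers summed to 105 to 130, 61.5 to 82.8, 265 to 292 and 244 to 263 CPM in the same order. Of 10 tested 2 were positive and 0 negative, beside 25.2% called over all genes. Fitted interactions of the 10 were negative in 4 and positive in 6, from −1.74 to 2.82. The called ones were Vwf, von Willebrand factor (0.66 ± 0.14), and Icam2 (0.86 ± 0.21), whose interaction on the linear scale was −2.38 CPM.

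The remaining marker lists were small. Both lymphatic endothelial genes tested, Flt4 (0.93 ± 0.096) and Pdpn (0.43 ± 0.088), were positive, with Prox1 at 0 and summed levels of 416 to 440, 211 to 217, 518 to 531 and 423 to 439 CPM in the same order of groups. Of 3 lung capillary genes tested the peptide Apln was negative (−1.02 ± 0.17), with sums of 87.8 to 98.3, 114 to 149, 130 to 153 and 108 to 133 CPM. Lung epithelial markers, mostly keratins, summed to 965 to 1180, 789 to 990, 2070 to 2610 and 2500 to 2870 CPM, and 1 of 6 tested was positive, 0 to 1 when single libraries were left out. Leukocyte markers summed to 64.9 to 76.5, 77.5 to 86.5, 83 to 90.6 and 103 to 106 CPM; 0 of 4 tested were called by edgeR, and Ptprc, Cd3e, Itgam and Marco were under 1 CPM in every library.

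Among named genes that passed the level limits given with the methods, many of the most negative interactions lay in genes near 0 in WT with glucose. Npc1l1, a sterol importer, was at 0.117, 0.154 and 0.0478 CPM in WT with glucose and 3.75, 3.49 and 3.66 with fructose. KO libraries held 2.87, 2.9 and 2.37 CPM with glucose and 4.62, 6.17 and 4.24 with fructose. WT with glucose was near 0 and well below all other libraries; the interaction was −4.29 ± 0.46 (adjusted p = 7.31e-06). Tenm4, a teneurin of cell contacts, was at 0.644, 0.308 and 0.525 CPM in WT with glucose, 25.7, 26.8 and 24.1 CPM in WT with fructose, 0.287, 0.145 and 0.377 CPM in KO with glucose and 1.38, 0.304 and 2 CPM in KO with fructose, with WT fructose alone far above 0 (interaction −3.70 ± 0.85 (adjusted p = 0.00665)). Cox6a2, the muscle form of a cytochrome oxidase subunit (−3.47 ± 0.33), Dsc3, a desmosomal cadherin (−3.06 ± 0.38), Itga2, a collagen receptor chain (−2.85 ± 0.36), and Atp1a4, a sodium pump subunit of testis (−2.64 ± 0.44), rose in WT from a similar level, as did Rbm44 (−2.95 ± 0.60) and Crct1 (−2.71 ± 0.46). All of these stood under 1 CPM in WT with glucose, so their log2 values rest on few counts there.

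On the positive side, beside Txnip and Ccne1, stood Gpd1 (chr7:141370491-141377928, plus strand), the cytosolic glycerol phosphate dehydrogenase, at 87.6, 81.6 and 106 CPM in WT with glucose and 8.8, 7.92 and 12.2 with fructose. KO libraries held 23.7, 29.8 and 25 CPM with glucose and 16.6, 18.3 and 20.5 with fructose. WT with glucose was above every other library; the fall was 8.65-fold in WT (−3.11 ± 0.15 (adjusted p = 6.39e-10)), the KO change was −0.51 ± 0.14 (adjusted p = 0.0505) and the interaction 2.60 ± 0.20 (adjusted p = 5.78e-07). Padi3, an arginine deiminase, was at 19.7, 19.4 and 16.7 CPM in WT with glucose, 1.9, 3.04 and 2.47 CPM in WT with fructose, 22.5, 19.1 and 18.8 CPM in KO with glucose and 21, 14.6 and 16.8 CPM in KO with fructose, so that WT with fructose alone was low (interaction 2.56 ± 0.25 (adjusted p = 3.07e-06)). Srcin1, an inhibitor of Src (3.47 ± 0.78), Capn8, a calpain (2.75 ± 0.23), Slc43a2, an amino acid transporter (2.64 ± 0.39), Fcho1, an endocytosis factor (2.75 ± 0.60), and Lgals2, a galectin (2.45 ± 0.53), also fell in WT with no called change in KO. The Fcho1 call did not hold in the fit of all 24 libraries.

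The 44 genes with opposite responses included, beside Creld2, Myl9, Hmgcs1 and Acat2, Glipr1 (1.49 ± 0.079 in WT, −0.29 ± 0.077 in KO, interaction −1.77 ± 0.11), Cyct, the testis cytochrome c (0.86 ± 0.21, −1.03 ± 0.27, interaction −1.90 ± 0.34), and Ackr4, a chemokine scavenger, at 18.9, 16.2 and 21.4 CPM in WT with glucose, 4.83, 4.68 and 6.85 CPM in WT with fructose, 16.8, 13.6 and 15.9 CPM in KO with glucose and 25, 22.6 and 23.1 CPM in KO with fructose (interaction 2.26 ± 0.21 (adjusted p = 2.5e-06)). Some KO calls did not hold when any of several libraries was left out. That of Glipr1 was lost in 7 of the 12 fits that left out a library (adjusted p up to 0.15). That of Cyct was lost in 4 of the 12 (adjusted p up to 0.161), and that of Myl9 in 5 (adjusted p up to 0.124). Ackr4 lost its KO call in 3 of the 12 (adjusted p up to 0.112) and in the fit of all 24 libraries. Genes that answered in KO alone included Atg9b, an autophagy lipid scramblase (1.27 ± 0.24, interaction 1.60 ± 0.35), and Zc3h12d, an RNA-degrading factor (1.20 ± 0.29, interaction 1.85 ± 0.43), which rose; the latter call was lost in 4 of the 12 fits that left out a library (adjusted p up to 0.148). Col14a1, a collagen of fibril surfaces, was at 25.7, 28.6 and 35.1 CPM in WT with glucose, 20.4, 23 and 29.2 CPM in WT with fructose, 9.86, 10.7 and 10.2 CPM in KO with glucose and 4.26, 4.12 and 4.12 CPM in KO with fructose; only KO changed (−1.30 ± 0.15 (adjusted p = 8.62e-05)), with an interaction of −1.13 ± 0.20 (adjusted p = 0.000746). Aif1l, an actin bundler (−0.70 ± 0.067, interaction −0.78 ± 0.095), and Klhl30 (−0.66 ± 0.089, interaction −0.71 ± 0.12) fell in KO alone.

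The same contrast was taken in normoxia. In a fit of all 24 libraries, 3785 genes were called in hypoxia, 25.6%, with 1585 positive (10.7%) and 2200 negative (14.9%), and 2827 in normoxia, 19.1%, with 1351 positive (9.15%) and 1476 negative (9.99%). Of these, 1920 were called in both, 50.7% of the hypoxia list and 67.9% of the normoxia list, and 1906 had the same sign. The fitted values, which share no library, had a Pearson correlation of 0.419 across genes. By list, in normoxia 18 of the chaperones were negative and 1 positive, 30 replication genes and 29 mitosis genes were positive with none negative, and 21 ATF4 genes were negative with 1 positive. Cholesterol genes were positive in 14, with 0 negative, at a median of 0.55 beside 0.98 in hypoxia in the same fit. Other lists were less alike: interferon genes were positive in 8 in hypoxia and 2 in normoxia, at medians of 0.68 and −0.14, and glycogen genes were negative in 7 and 4, at medians of −0.78 and 0.052. No interferon or glycogen gene was called for the difference between the oxygen conditions.

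**Figure D5:**
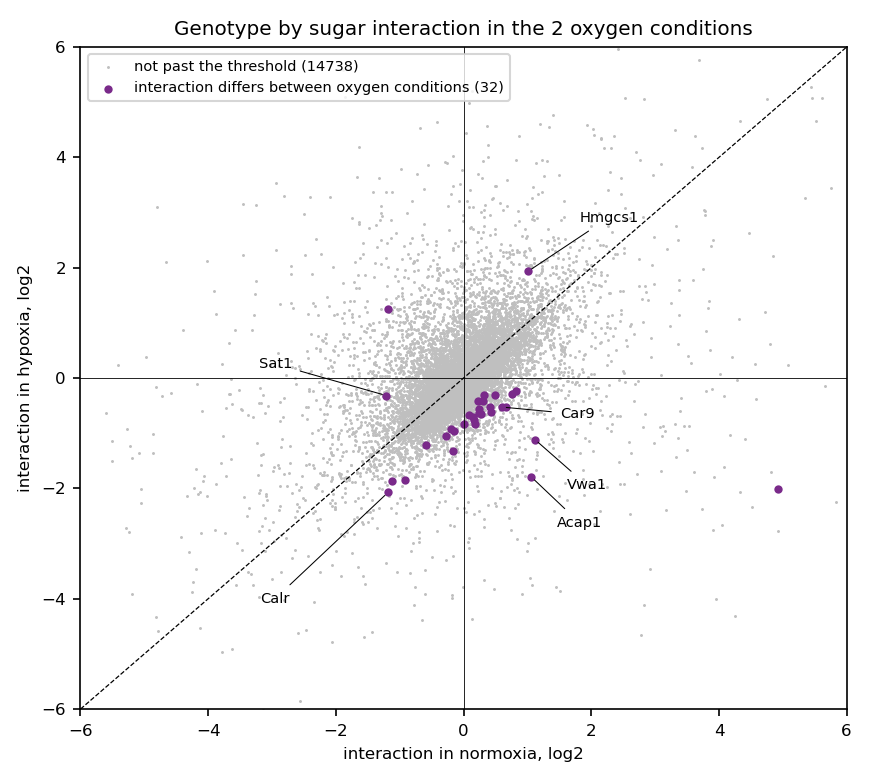
Log2 genotype by sugar interaction in normoxia (x axis) against hypoxia (y axis), from the fit of all 24 libraries, with a point for each of 14770 genes; the 32 genes whose interaction differed between the oxygen conditions are coloured, and the diagonal marks equal values. The cloud is tilted along the diagonal with a wide scatter, 29 of the coloured points lie below it, and 24 genes lie outside the axes drawn.

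The difference between the oxygen conditions was itself tested, and 32 genes were called, 0.217%, with 3 positive (0.0203%) and 29 negative (0.196%); 1446 had an unadjusted p under 0.05. Of the 32, 29 were called in hypoxia and 17 in normoxia, 21 had fitted interactions of opposite sign, and 9 of those were called in both. Vwa1, a matrix protein of basement membranes, had an interaction of −1.11 ± 0.17 in hypoxia and 1.12 ± 0.19 in normoxia, a difference of −2.23 ± 0.25 (adjusted p = 8.87e-05). Its hypoxia levels were 69.6, 73.7 and 70.3 CPM in WT with glucose, 103, 103 and 137 CPM in WT with fructose, 143, 152 and 147 CPM in KO with glucose and 135, 124 and 114 CPM in KO with fructose, with fructose libraries above glucose libraries in WT and below them in KO. In normoxia they were 24.8, 24.2 and 21.3 CPM in WT with glucose, 7.37, 10.2 and 6.15 CPM in WT with fructose, 32.4, 34.2 and 34.9 CPM in KO with glucose and 25.8, 23.3 and 29.2 CPM in KO with fructose, where WT with fructose was below every other library. The difference was called in every fit that left out a library.

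Zfp395, a zinc finger gene, also had values of opposite sign (−0.52 in hypoxia, 0.66 in normoxia, difference −1.18 ± 0.18, adjusted p = 0.00308), as did Car9, carbonic anhydrase 9 and a textbook hypoxia marker, chosen after its values were seen (−0.53 in hypoxia, 0.60 in normoxia, difference −1.13 ± 0.22, adjusted p = 0.0306). Cnn2, a calponin, had its interaction in hypoxia alone by call (−1.33 in hypoxia, −0.17 in normoxia, difference −1.16 ± 0.20, adjusted p = 0.0134). Hmgcs1 was positive in both and more so in hypoxia (1.94 in hypoxia, 1.01 in normoxia, difference 0.92 ± 0.19, adjusted p = 0.0396), and the chaperone Calr was negative in both and more so in hypoxia (−2.07 in hypoxia, −1.18 in normoxia, difference −0.89 ± 0.18, adjusted p = 0.0309). Sat1, which breaks down polyamines, was called in normoxia and not in hypoxia (−0.32 in hypoxia, −1.21 in normoxia, difference 0.89 ± 0.19, adjusted p = 0.0396). Acap1, an Arf regulator of endosomes, was at 7.15, 7.33 and 5.92 CPM in WT with glucose, 21.5, 21 and 24.7 CPM in WT with fructose, 25.4, 21.2 and 21.3 CPM in KO with glucose and 27.5, 26.5 and 19.2 CPM in KO with fructose in hypoxia, where WT with glucose was lowest in every library (−1.79 in hypoxia, 1.06 in normoxia, difference −2.86 ± 0.48, adjusted p = 0.0107). In normoxia all 6 WT libraries were under 1 CPM, at 0.217 to 0.874 CPM, against 2.7 to 5.1 CPM in KO, and the normoxia interaction was not called (adjusted p = 0.0679), so this difference rests partly on few counts. Des, listed with the smooth muscle markers, differed as well (−0.67 in hypoxia, 0.086 in normoxia, difference −0.76 ± 0.16, adjusted p = 0.0396). Most of these differences were close to the threshold. Over the 24 fits that left out a library, 10 to 35 genes were called, 10 without KO hypoxia glucose replicate 1. That of Hmgcs1 was lost in 16 of the 24 fits that left out a library (adjusted p up to 0.0991), Calr in 13 of the 24 fits that left out a library (adjusted p up to 0.0713), Car9 in 7 of the 24 fits that left out a library (adjusted p up to 0.0613), Sat1 in 18 of the 24 fits that left out a library (adjusted p up to 0.0875) and Des in 20 of the 24 fits that left out a library (adjusted p up to 0.0997), and also with RLE size factors.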

How the data were processed

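RNA of 24 samples of the rat line was handled and made into libraries by Novogene, per the labels' protocols; the 12 hypoxia samples are analysed here. Values in the deposited table are raw gene counts, which the authors made from reads aligned by HISAT2 to Rnor_6.0, per the submitters' processing notes, which also name DESeq2. The sources used here give no tool version, counter or strand setting. Genes that overlap, lie antisense or share near-identical copies may therefore trade reads. The table has 34523 genes, of which 1978 have no name, and 5 emptied lines that are not analysed here.

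A filter on low counts (filterByExpr, at least 10 counts in a group's worth of libraries and 15 in all) retained 14447 genes. The robust quasi-likelihood model of edgeR 4.0.16 (R 4.3.3) was fitted to group means with TMM scaling, 8 residual degrees of freedom and a biological coefficient of variation of 0.143. The WT response, the KO response and the interaction came from that fit; the normoxia interaction and the difference between oxygen conditions came from a fit of all 24 libraries (14770 genes, 16 degrees of freedom, coefficient 0.146). Tests were two-sided, with Benjamini-Hochberg adjustment over all genes tested and a threshold of 0.05. Standard errors were derived from the log2 value and its F statistic. CPM used library totals without TMM factors.

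The members and the 40 gene lists were chosen with earlier results of these data known, so list counts are descriptions. The lists hold 715 symbols, of which 697 were matched. Genes to name came from a rule: 15 preset genes; the 12 most positive and 12 most negative called interactions, and the 4 largest of each response pattern, among symbols with a mean log2 CPM of at least 1 over the samples and at least 1 CPM in a group of each genotype; the 5 largest called members of each list and its 2 most abundant uncalled ones; and up to 4 called values of each sign for the difference between oxygen conditions, under the same limits. Not all were printed: weakly called members and symbols with several identifiers were left out. The linear scale check used group means of CPM. No samples were duplicates: within groups the chi-square per gene was 6.37 to 25.1, and log2 CPM correlated across genes at 0.983 to 0.987. The interaction fit was tested on simulated data. Changes of 1.5-fold were recovered in 8 of 50 genes, of 2-fold in 40, of 4-fold in 43 and of 8-fold in 48. Of 152 calls in all, 13 were false. Alternatives were other scalings, filters, DESeq2 1.42.0, a replicate block and the omission of each library. Promoter windows came from the RefSeq table of GRCr8 and were matched by Ensembl gene identifier, or by symbol where that gave no match.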

Additional observations from a re-analysis of the deposited data

Results flagged for a closer look

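The sugar response differed between WT and KO cells for 3637 genes in hypoxia, by the test of the difference itself. The size of that difference changed between hypoxia and normoxia for 32 genes, by the same kind of test over all 24 libraries. Among the genes named here, the interaction in hypoxia less that in normoxia was −2.86 for Acap1, −2.23 for Vwa1, −1.18 for Zfp395, −1.16 for Cnn2, −1.13 for Car9, −0.89 for Calr, −0.76 for Des, 0.92 for Hmgcs1 and 0.89 for Sat1, on the log2 scale.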

How the results depend on the processing

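Of 152 called entries for the genes named here, which count Mgea5 under both its old and its new name, 146 kept their sign and call in hypoxia under every setting. None reversed on the log2 scale, and 6 lost the call under some setting. Counts within 1.5 times of those reported were obtained for the interaction with every tool and filter (3352 to 4067 genes; 3006 to 3587 when single libraries were left out, with 1408 to 1780 positive and 1560 to 1857 negative) except for the positive side under library totals alone, at 2832. The WT count ran from 5797 to 6841 (2787 to 3335 higher, 2989 to 3543 lower) when single libraries were left out. The KO count ran from 427 to 935 (219 to 448 higher, 208 to 487 lower), and DESeq2 called 1114. The normoxia count ran from 2349 to 2911 (1091 to 1407 positive, 1258 to 1534 negative). The 32 genes that differed between oxygen conditions became 106 with DESeq2 (34 positive, 72 negative) and 10 to 35 without single libraries (0 to 7 positive, 10 to 30 negative); the cause was not tested. With the replicate number as a block the interaction was called for 4791 genes, the WT response for 7495, the KO response for 1567 (739 higher, 828 lower), the normoxia interaction for 3808 and the difference between oxygen conditions for 186 (50 positive, 136 negative). The labels do not say that the numbers pair samples, and deviations of the 18 same-numbered pairs correlated at 0.0327 to 0.286, with 8 above 0.1, although each of the 12 samples correlated best with its own number, a hint from the data and not from the design. Uncalled interactions became called for Ldha (adjusted p = 0.0117) and Sat1 (0.0453) under the block, for Ldha (0.00558) and Acly (0.0107) under library totals, and for Sat1 (0.0191) without WT hypoxia glucose replicate 3. The uncalled interaction of Arrdc4, which had no count in any KO library, became called with DESeq2 alone. The uncalled Khk value of −0.024 turned positive under library totals (0.11) and the block (0.075) and without single libraries (up to 0.41, and down to −0.40). In CPM the interaction turned for Des (10.2) and Icam2 (−2.38). Genes near or under 1 CPM rest on few counts, and 3 samples a group limit what can be called.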
